A study of Mus musculus with 24 samples.

Results

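The 10 immediate early genes Fos, Fosb, Jun, Junb, Atf3, Egr1, Egr2, Ier2, Ier3 and Dusp1 were examined in the dental mesenchyme of mouse molar tooth germs. They were taken by name, as a set known to respond to handling and culture, by a rule that uses no measured value. Earlier results of these data were known when they were chosen. All 10 were found by identifier among the 56748 genes of the deposited read count table. The table covered 24 bulk RNA-seq libraries, 3 for each of 8 groups, from first mandibular molars of ICR mice. Cap-W and Bell-W were undivided at the cap stage (E13 by the methods of the study) and at the bell stage (E15). Cap-L, Cap-B, Bell-L and Bell-B were the lingual and buccal parts, separated with a fine needle at the same stages. The same cap stage parts, each kept for 2 days in culture without its counterpart, gave Cap-L+2D and Cap-B+2D. Mesenchymal cells of all groups were isolated with dispase II, and no group carried a transgene or received a further treatment by the labels. The labels call the W samples whole tooth germs, although the protocol isolates mesenchyme from each germ. The methods gave 36 embryos from 3 pregnant mice, and nothing stated which libraries shared animals or cultures. The p-values therefore measured only the spread between these libraries, which may be technical.

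Immediate early genes are transcribed within minutes of a stimulus, before any new protein is made, and their transcripts are short-lived. Serum, growth factors, wounding, mechanical strain and cell dissociation all induce them, through MAP kinases that act on serum response factor with its ternary complex partners and on CREB. Fos, Fosb, Jun, Junb and Atf3 encode leucine zipper proteins that pair to form AP-1 and related dimers. Egr1 and Egr2 encode zinc finger transcription factors, and Egr2 is also known for its role in Schwann cells. Ier2 and Ier3 encode early response proteins, and Dusp1 encodes a phosphatase that inactivates MAP kinases and so closes the loop. In embryonic tissue these genes are also used in normal signalling, and tissue dissection is known to raise them.

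Short promoter stretches are shown because they carry the binding motifs through which this class of genes is known to be induced. The 500 bases upstream of the start of each gene's canonical transcript were searched on both strands for 9 of the 10 genes, in GRCm39 with GENCODE start sites, and Egr1 was not searched. The CArG box, the motif of serum response factor, was present upstream of Fos, Fosb and Egr2, 3 of the 9 genes, against 2.8% of 21123 promoters of the same length. The full cyclic AMP response element TGACGTCA was present upstream of Ier2 and Dusp1, 2 of the 9, against 1.96% of all promoters. The AP-1 motif TGANTCA was found upstream of Fos (12.4% of all promoters) and the EGR motif GCGNGGGCG upstream of Fosb and Jun (5.4% of all promoters). No match overlapped another, and in the stretches shown capitals mark the CArG box or the cyclic AMP response element.
Fos, chr12:85520335-85520384, plus strand: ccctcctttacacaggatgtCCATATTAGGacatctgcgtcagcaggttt
Fosb, chr7:19044213-19044262, minus strand: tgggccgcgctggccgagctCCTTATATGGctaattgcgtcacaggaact
Egr2, chr10:67373304-67373353, plus strand: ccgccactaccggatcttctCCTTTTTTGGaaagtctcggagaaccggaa
Egr2, chr10:67373607-67373656, plus strand: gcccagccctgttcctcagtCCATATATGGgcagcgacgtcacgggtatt
Ier2, chr8:85389499-85389546, minus strand: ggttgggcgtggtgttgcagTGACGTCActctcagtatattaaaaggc
Dusp1, chr17:26727562-26727609, minus strand: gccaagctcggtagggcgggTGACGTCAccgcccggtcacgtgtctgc
For Egr2 and Dusp1 the canonical start lies inside the annotated span of the gene, so their stretches are upstream of that start only and lie within the gene as a whole. A match is a description of these letters and was not tested for binding.

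The genes lie on several chromosomes and few share exons with a neighbour. By the exon coordinates of the deposited table, in GRCm39, Fos spans chr12:85520664-85524047 (plus strand) and Fosb chr7:19036621-19043976 (minus strand), both without exon overlap. Jun spans chr4:94937271-94940459 (minus strand) and shares 7.28% of its exon bases with the antisense gene Junos. Junb spans chr8:85701113-85705347 (minus strand) and shares 7.52% with Prdx2 on the other strand. Dusp1 spans chr17:26724564-26781102 (minus strand) and shares 0.332% with Ergic1. Egr2 (chr10:67371305-67378018, plus strand), Ier2 (chr8:85387960-85389483, minus strand), Ier3 (chr17:36132576-36133815, plus strand) and Atf3 (chr1:190902493-190950236, minus strand) share none, nor does Egr1. The counting ignored strand and left out read pairs that fell on 2 genes, so reads of Jun, Junb and Dusp1 from the shared bases are missing from their counts.

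Total counts ran from 20581720 to 39266497 per library, and levels are given as counts scaled per 1000000 (CPM) after TMM normalization. The lowest count of any member in any library was 85, for Atf3 in a Cap-W library, so no member came near the floor of 3 counts. The libraries of the 6 groups of parts were close replicates, with coefficients of variation (CV) of the members between 0.409% and 12.6% and a median of 2.55%. The counts of any pair of those libraries still differed by more than sampling noise, by a chi-square per degree of freedom of 1.34 to 11.1, and each was counted separately as its label gives it. Spread above counting noise also arises between technical libraries of the same pool, and the methods mention 2 biological replicates beside triplicates. The undivided groups varied far more, with member CVs between 5.36% and 51.7% and a median of 29.8%. Mitochondrial reads made up 2.24% to 7.95% of counts, highest in Cap-W replicate 1, where a ribosomal RNA gene, Rn18s-rs5, took 5.39%. Markers of dental mesenchyme were abundant in every library, summing to 2099 to 4030 CPM over 10 genes. Epithelial markers were also detected in all groups, between 22.9 and 1993 CPM over 10 genes.

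**Figure D1:**
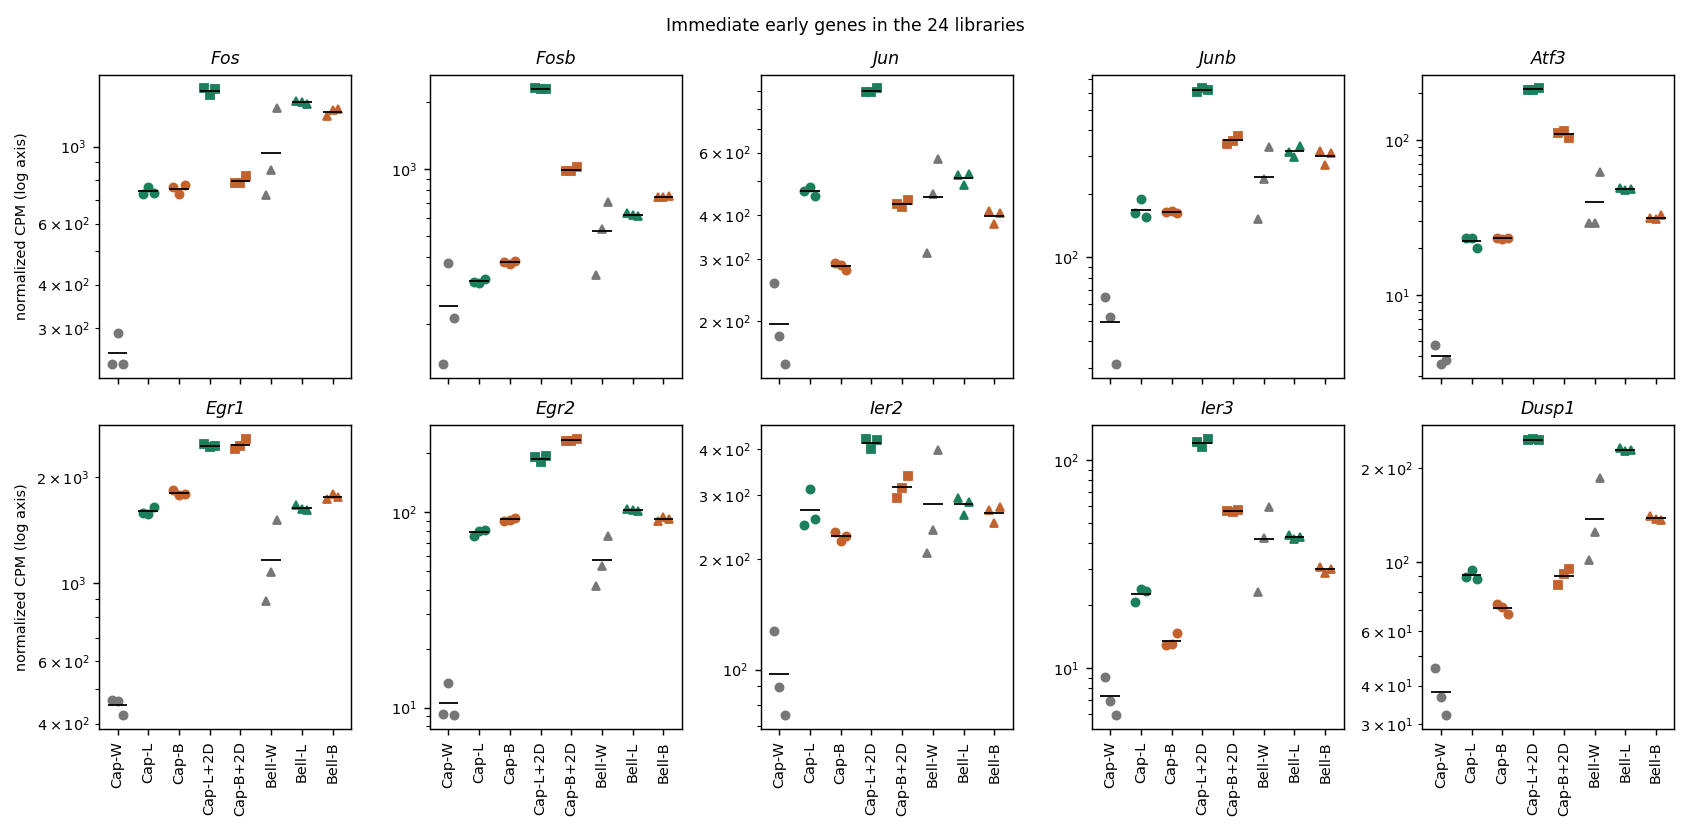
Normalized CPM (log axis) of the 10 immediate early genes in each of the 24 libraries, with 1 point per library and a black line at the mean of each group of 3. Grey marks undivided, green lingual and orange buccal samples, and circles stand for cap stage, squares for cultured and triangles for bell stage samples. The Cap-W points have the lowest mean in all 10 panels, and the Cap-L+2D points the highest mean in 8.

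The groups at the ends of the order were the same for most members. Cap-W had the lowest mean of the 8 groups for all 10 genes, and Cap-L+2D had the highest for 8, with Cap-B+2D highest for Egr1 and Egr2. The span from the lowest to the highest group differed between members. It was 52.6-fold for Atf3, 22.1-fold for Egr2, 16.6-fold for Ier3 and 12.5-fold for Junb. The other members spanned 9.47-fold for Fosb, 6.48-fold for Dusp1, 5.71-fold for Fos, 5.48-fold for Egr1, 4.58-fold for Jun and 4.26-fold for Ier2. Per kilobase of exon, Egr1 and Fos were the most abundant by their medians over the 24 libraries, at 379 and 342 CPM per kilobase, and Atf3 was the least abundant at 14.4.

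Neighbours in the order often overlapped. Fos in Cap-L (731 to 763 CPM) overlapped Cap-B (728 to 773 CPM), and Egr1 in Cap-L+2D (2425 to 2483 CPM) overlapped Cap-B+2D (2403 to 2563 CPM). Bell-W overlapped its upper neighbour in the order for all members except Egr1 and Egr2. For those, Bell-W stood alone between Cap-W below it and Cap-L above it.

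Averaged over the 10 genes, with each gene centred on its mean log2 CPM over all libraries, Cap-W lay lowest, at -1.82, -1.83 and -2.16 in its 3 libraries. Cap-L followed at -0.29, -0.19 and -0.28, and Cap-B at -0.38, -0.40 and -0.38. These uncultured cap parts formed a narrow band far above the undivided cap libraries. Bell-L lay at 0.44, 0.38 and 0.43, Bell-B at 0.20, 0.16 and 0.21, and Bell-W at -0.48, -0.07 and 0.50. The Bell-W libraries thus spread across the whole interval between the cap parts and the bell parts. The cultured groups were highest, at 1.37, 1.35 and 1.39 in Cap-L+2D and 0.59, 0.61 and 0.66 in Cap-B+2D, with no overlap between them or with any other group.

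**Figure D2:**
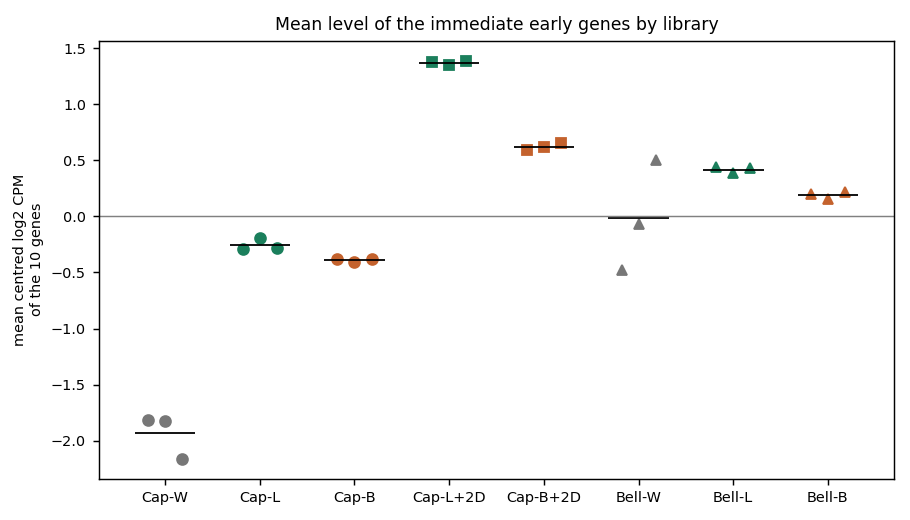
Mean over the 10 genes of log2 CPM centred on each gene's mean over all libraries (vertical axis, log2 units), for each library in the 8 groups, with lines at the means of groups of 3. The 3 Cap-W libraries sit between -2.16 and -1.82 and the 3 Cap-L+2D libraries between 1.35 and 1.39, while the Bell-W libraries reach from -0.48 to 0.50.

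The cultured lingual part was compared first with the uncultured one, Cap-L+2D against Cap-L. Here and in the buccal part, culture cannot be told apart from 2 days of age or from anything else that differed between these libraries. The bell stage parts, of the closest age, are compared below. All 10 members rose, against 19.6% of the 21425 genes tested that were called higher and 15.9% called lower (adjusted p under 0.05 with a log2 fold change beyond 0.5 in size). The groups did not overlap for any of the 10, a state that 64.4% of all genes shared. The median member change was 1.36 on the log2 scale, and the median of all genes was -0.03.

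Among the AP-1 genes, Atf3, a stress-induced repressor of the ATF family, had 23.1, 23.4 and 20.1 CPM in the 3 Cap-L libraries and 209, 211 and 215 in Cap-L+2D. Every cultured library was far above every uncultured library, and the rise was the largest of the set (log2 fold change 3.26, SE 0.05, adjusted p = 3.35e-25). Fosb, a close relative of Fos, had 309.7, 308 and 321 CPM in Cap-L and 2300.4, 2279.7 and 2279 in Cap-L+2D (log2 fold change 2.88, SE 0.04, adjusted p = 1.08e-25). The cultured Fosb levels were the highest of this gene in any group. Fos itself had 731, 763 and 733 CPM in Cap-L and 1471, 1406 and 1468 in Cap-L+2D, apart from each other but by a smaller factor (log2 fold change 0.97, SE 0.04, adjusted p = 1.76e-16). Junb, which restrains Jun activity in many cells, ranged between 154 and 189 CPM in Cap-L and between 605 and 629.9 in Cap-L+2D (log2 fold change 1.88, SE 0.06, adjusted p = 3.1e-19). Jun ranged between 453 and 480.4 CPM and between 889.5 and 913 CPM, in the same order (log2 fold change 0.95, SE 0.04, adjusted p = 6.21e-16).

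The EGR genes rose less in the lingual part than Atf3 or Fosb. Egr1 had 1582, 1569 and 1645 CPM in Cap-L and 2483, 2425 and 2446 in Cap-L+2D (log2 fold change 0.62, SE 0.04, adjusted p = 1.25e-12). Egr2 had 75.6, 80.1 and 80.9 CPM in Cap-L and 191, 180.3 and 194 in Cap-L+2D (log2 fold change 1.26, SE 0.04, adjusted p = 2.74e-18). Both were higher in all 3 cultured libraries than in any uncultured library. Ier3, an early response gene linked to cell survival, had 20.8, 24.0 and 23.4 CPM in Cap-L and 122, 116 and 126 in Cap-L+2D (log2 fold change 2.42, SE 0.05, adjusted p = 3.81e-22). Ier2 had 248, 312 and 258 CPM in Cap-L and 426, 399 and 422 in Cap-L+2D, and the high Cap-L value of replicate 2 gave it the widest spread of any member in a group of parts (log2 fold change 0.61, SE 0.06, adjusted p = 2.6e-09). The phosphatase gene Dusp1 had 89.7, 94.0 and 88.1 CPM in Cap-L and 247, 249 and 247 in Cap-L+2D, also without overlap (log2 fold change 1.46, SE 0.04, adjusted p = 5.09e-20).

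In the buccal part, Cap-B+2D against Cap-B, 6 of the 10 members rose, against 17.9% of the 21992 genes tested. The 6 were Atf3, Ier3, Fosb, Egr2, Junb and Jun, and none fell (16.6% of genes tested). Cultured and uncultured libraries again did not overlap for any of the 10 members (66.6% of all genes), and 9 of the 10 passed the adjusted p without the fold limit. Without that limit, 15270 of the 21992 genes had an unadjusted p under 0.05, a looser threshold than the adjusted p. The median member change was 0.84 on the log2 scale, and the median of all genes was -0.02.

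Atf3 had 23.2, 23.0 and 23.3 CPM in Cap-B and 111, 114 and 102 in Cap-B+2D (log2 fold change 2.22, SE 0.05, adjusted p = 1.44e-28), and Fosb had 382, 375 and 384 and 979, 977 and 1019.5 (log2 fold change 1.36, SE 0.03, adjusted p = 1.11e-27). Fos had 762, 728 and 773 CPM in Cap-B and 783, 783 and 824 in Cap-B+2D, and the difference did not pass the test (log2 fold change 0.06, SE 0.03, adjusted p = 0.105). Its lowest cultured library lay close above its highest uncultured library. Ier3 had 12.9, 13.1 and 14.7 CPM in Cap-B and 57.1, 56.1 and 57.4 in Cap-B+2D (log2 fold change 2.05, SE 0.05, adjusted p = 1.07e-25). Egr2 had 90.5, 91.5 and 93.6 CPM and 231, 232 and 237, the highest levels of this gene in any group (log2 fold change 1.33, SE 0.03, adjusted p = 3.91e-26). Junb, at 1.12 ± 0.04 (log2 fold change ± SE), and Jun, at 0.57 ± 0.03, completed the genes that rose. Egr1 (0.44 ± 0.03), Ier2 (0.42 ± 0.04) and Dusp1 (0.33 ± 0.04) were higher at an adjusted p under 0.05 but under the fold limit. Dusp1, for example, had 73.3, 71.5 and 67.9 CPM in Cap-B and 84.5, 91.3 and 95.1 in Cap-B+2D.

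**Figure D3:**
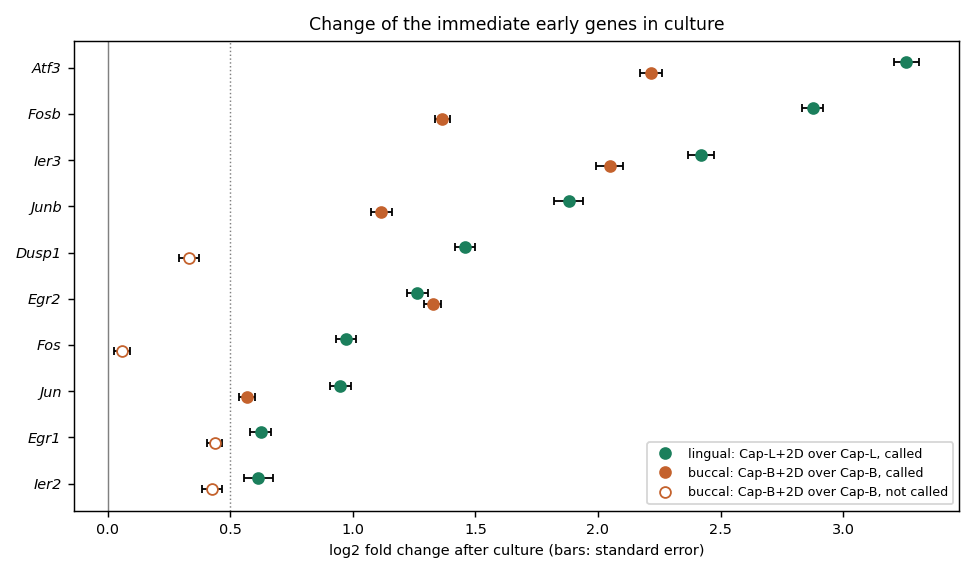
Log2 fold change of each gene after 2 days of culture (horizontal axis, bars show the standard error derived from the F statistic), for lingual (green) and buccal (orange) tissue, each from 3 cultured and 3 uncultured libraries. Filled points passed the adjusted p and the fold limit of 0.5 (dotted line). Fosb lies at 2.88 (lingual) and 1.36 (buccal), while Egr2 lies at 1.26 and 1.33.

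The difference between these responses was tested directly as an interaction of side with culture over 12 libraries. A negative value means that the buccal part changed less, or less upward, than the lingual part. For 8 of the 10 members the interaction was negative at an adjusted p under 0.05, against 19.5% of 22098 genes tested, and for none was it positive (16% of genes). It was largest for Fosb (difference of log2 fold changes -1.52, SE 0.05, adjusted p = 1.02e-19), then Dusp1 (difference of log2 fold changes -1.14, SE 0.07, adjusted p = 9.15e-15) and Atf3 (difference of log2 fold changes -1.05, SE 0.08, adjusted p = 2.47e-12). Fos (-0.92 ± 0.06, log2 scale ± SE) and Junb (-0.77 ± 0.07) followed, with Jun (-0.39 ± 0.06), Ier3 (-0.38 ± 0.08) and Egr1 (-0.20 ± 0.05) smaller. Egr2 (difference of log2 fold changes 0.05, SE 0.06, adjusted p = 0.528) and Ier2 (difference of log2 fold changes -0.20, SE 0.08, adjusted p = 0.064) did not pass. Fitted over all 24 libraries, the undivided ones included, 4 of the 10 members passed in place of 8, namely Fosb, Dusp1, Atf3 and Fos. Calls fell over all genes as well. They were 2075 negative and 1973 positive of 23402 genes in that fit, against 4316 and 3526 of 22098 in the fit of 12 libraries. The cause of this drop was not tested.

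Several cell type markers moved with culture. The summed level of 8 erythroid markers was 2907 to 3595 CPM in Cap-L, 3350 to 3484 in Cap-B, and 33.8 to 41.1 across both cultured groups. The 8 skeletal muscle markers summed to 20.8 to 21.5 CPM in Cap-L and 308 to 326 in Cap-L+2D, and to 225 to 246 in Cap-B and 3865 to 4090 in Cap-B+2D. The 8 macrophage markers summed to 69.2 to 75.6 CPM in Cap-L and 294 to 307 in Cap-L+2D, and to 69.2 to 76.7 in Cap-B and 190.0 to 205 in Cap-B+2D. Epithelial markers stayed within 389 to 463 CPM in Cap-L and Cap-L+2D, although 4 of the 10 fell (Krt8, Epcam, Esrp1 and Krt14) and 2 rose (Cldn4 and Krt15), and were 329 to 344 in Cap-B and 22.9 to 24.3 in Cap-B+2D, where all 10 fell. The 8 endothelial markers summed to 530 to 538 CPM in Cap-L and 438 to 443 in Cap-L+2D, and to 467 to 477 in Cap-B and 182 to 188 in Cap-B+2D. The 10 dental mesenchyme markers summed to 2959 to 2978.5 CPM in Cap-L and 2420.5 to 2503 in Cap-L+2D. In Cap-B they summed to 3038 to 3050 CPM, and in Cap-B+2D to 2114 to 2131. Of these 10, 4 were called lower and 1 higher in the lingual culture, and 3 lower and none higher in the buccal culture. The 6 Schwann and glial markers summed to 25.7 to 27 CPM in Cap-L, 15.5 to 16.4 in Cap-L+2D, 60.4 to 65.4 in Cap-B and 96.1 to 99.5 in Cap-B+2D. Of these 6, 5 were called lower in each culture (15.9% of all genes lingual, 16.6% buccal), with median log2 fold changes of -1.58 and -2.50. Only Erbb3 was called higher, in the buccal culture (1.65 ± 0.04, log2 fold change ± SE), and it was not called in the lingual culture (0.04 ± 0.07). Sox10 fell in both (-4.24 ± 0.23 and -5.60 ± 0.15). No marker of these lists was at 0 in every library of a group. The part of these shifts in the changes of the members was not tested, and in bulk tissue fewer cells of a type and less RNA per cell cannot be told apart.

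Cultured parts were also set against the bell stage parts, the uncultured tissue at the age closest to the end of culture. In the lingual part, 8 of the 10 members were higher in Cap-L+2D than in Bell-L, against 14.4% of genes tested, and none was lower (16.8%). Atf3 (2.14 ± 0.05, log2 fold change ± SE), Fosb (1.88 ± 0.04) and Ier3 (1.50 ± 0.05) differed most, ahead of Junb (0.96 ± 0.06), Egr2 (0.87 ± 0.04), Jun (0.82 ± 0.04), Egr1 (0.58 ± 0.04) and Ier2 (0.56 ± 0.06). Fos (log2 fold change 0.11, SE 0.04, adjusted p = 0.0232) and Dusp1 (log2 fold change 0.11, SE 0.04, adjusted p = 0.0259) were higher by less than the fold limit. Fos had 1355, 1340.1 and 1327 CPM in Bell-L and Dusp1 had 232, 228 and 229, close below their cultured lingual libraries. From Cap-L to Bell-L, without culture, the log2 fold changes of Fos and Dusp1 were 0.86 and 1.35. From Cap-L to Cap-L+2D they were 0.97 and 1.46.

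In the buccal part, 3 members were higher in Cap-B+2D than in Bell-B (15.5% of genes tested) and 2 were lower (16.3%). Atf3 (1.78 ± 0.04), Egr2 (1.33 ± 0.03) and Ier3 (0.92 ± 0.05) were higher. Fos (log2 fold change -0.67, SE 0.03, adjusted p = 1.55e-18) and Dusp1 (log2 fold change -0.63, SE 0.04, adjusted p = 1.31e-15) were lower in the cultured buccal part. Egr1 (0.48 ± 0.03), Fosb (0.39 ± 0.03), Junb (0.24 ± 0.04), Ier2 (0.23 ± 0.04) and Jun (0.10 ± 0.03) were higher at an adjusted p under 0.05 but under the fold limit. Fos had 1225, 1273 and 1286 CPM in Bell-B and Dusp1 140.3, 138 and 137, all above every Cap-B+2D library. These comparisons share their cultured libraries with the comparisons against the cap stage.

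Related genes shifted relative to each other within a library. The ratio of Fosb to Fos in CPM per kilobase was 0.160, 0.152 and 0.165 in Cap-L and 0.589, 0.611 and 0.585 in Cap-L+2D. In Cap-B it was 0.189, 0.194 and 0.187, and in Cap-B+2D 0.471, 0.470 and 0.466. Bell-L and Bell-B lay with the uncultured cap parts, at means of 0.175 and 0.224, so all 6 cultured libraries exceeded all 12 libraries of uncultured parts. Cap-W varied most, from 0.212 to 0.491. The ratio of Junb to Jun had a mean of 0.498 in Cap-L and 0.953 in Cap-L+2D, and of 0.790 in Cap-B and 1.15 in Cap-B+2D, but it was also high in Bell-L (0.862) and Bell-B (1.05). Egr2 over Egr1 had a mean of 0.0651 in Cap-L and 0.101 in Cap-L+2D, of 0.0673 in Cap-B and 0.125 in Cap-B+2D, and of 0.0309 in Cap-W. These ratios are descriptions and were not tested.

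**Figure D4:**
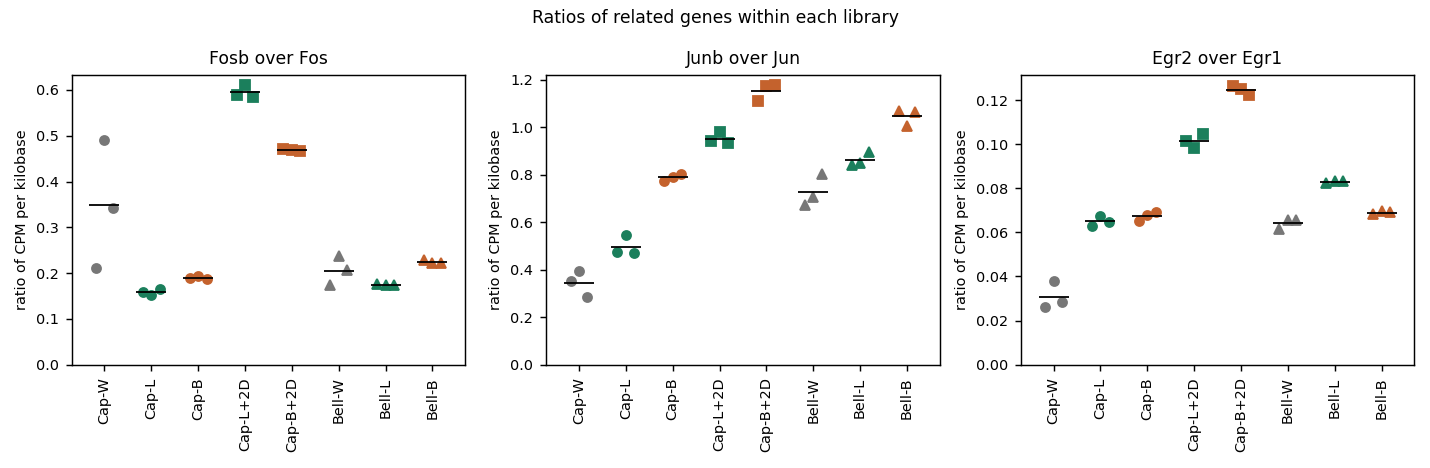
Ratios of CPM per kilobase of exon for Fosb over Fos, Junb over Jun and Egr2 over Egr1 in each of the 24 libraries (vertical axes start at 0, lines show the means of groups of 3). Fosb over Fos lies between 0.466 and 0.611 in the 6 cultured libraries, and between 0.152 and 0.229 in the 12 libraries of uncultured parts.

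The lingual and buccal parts were compared at each stage. At the cap stage no member was higher in Cap-B than in Cap-L, and 2 were lower, against 10.4% and 7.1% of 20653 genes tested. Ier3 had 20.8, 24.0 and 23.4 CPM in Cap-L and 12.9, 13.1 and 14.7 in Cap-B (log2 fold change -0.72, SE 0.07, adjusted p = 2.9e-07), and Jun had 468, 480.4 and 453 and 292, 288 and 278 (log2 fold change -0.68, SE 0.04, adjusted p = 3.5e-10). For both, every buccal library was below every lingual library. Fos (0.05 ± 0.04), Junb (-0.02 ± 0.06) and Atf3 (0.08 ± 0.07) did not pass the test (log2 fold change ± SE). Under the fold limit but at an adjusted p under 0.05, Fosb (0.31 ± 0.04), Egr2 (0.25 ± 0.04) and Egr1 (0.20 ± 0.04) were higher in Cap-B without overlap, and Dusp1 (-0.33 ± 0.05) and Ier2 (-0.21 ± 0.06) were lower.

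At the bell stage 3 members were lower in Bell-B than in Bell-L (6.88% of genes tested) and none was higher (6%). Dusp1 had 232, 228 and 229 CPM in Bell-L and 140.3, 138 and 137 in Bell-B (log2 fold change -0.73, SE 0.03, adjusted p = 7.06e-23). Atf3 had 48.7, 47.5 and 48.2 CPM and 31.3, 30.8 and 32.5 (log2 fold change -0.61, SE 0.05, adjusted p = 7.25e-15), and Ier3 43.8, 41.5 and 42.9 and 30.8, 28.6 and 30.1 (log2 fold change -0.52, SE 0.05, adjusted p = 3.37e-12). The groups were apart for all 3 genes, although Ier3 was not called without Bell-B replicate 2 (-0.49) or with all 24 libraries in the fit. Of the members under the fold limit, Jun (-0.36 ± 0.03, log2 fold change ± SE), Egr2 (-0.16 ± 0.03) and Fos (-0.09 ± 0.03) were lower and Fosb (0.27 ± 0.03) and Egr1 (0.11 ± 0.03) higher at an adjusted p under 0.05, while Junb (-0.07 ± 0.04) and Ier2 (-0.08 ± 0.04) did not pass. After culture 7 members were lower in Cap-B+2D than in Cap-L+2D (12.5% of genes tested) and none was higher (12.5%). These were Dusp1 (-1.46 ± 0.04, log2 fold change ± SE), Fosb (-1.21 ± 0.03), Ier3 (-1.10 ± 0.04), Jun (-1.07 ± 0.04), Atf3 (-0.97 ± 0.04), Fos (-0.87 ± 0.04) and Junb (-0.79 ± 0.04). Egr1 (0.00 ± 0.04), Egr2 (0.30 ± 0.04) and Ier2 (-0.41 ± 0.04) were not called. Ier3 was called lower in the buccal part in all 3 settings, and Jun and Dusp1 were lower without overlap in all 3 as well, each with 1 of the 3 differences smaller than the fold limit. Markers differed between the sides too. All 8 skeletal muscle markers were called higher in the buccal part at the cap stage, at the bell stage and after culture. Their median log2 fold changes were 3.88, 2.62 and 3.64. Of 10 epithelial markers, 7, 6 and 10 were called lower there, in the same order. Endothelial markers called lower were 0, 0 and 7 of 8, and macrophage markers 0, 6 and 6 of 8. The part of the markers was not tested.

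From the cap to the bell stage, 6 members rose in the lingual part (14.2% of genes tested) and 5 in the buccal part (12% of genes tested). None fell on either side, where 5.78% of genes fell in the lingual and 6.73% in the buccal part. Dusp1 (1.35 ± 0.04 lingual, 0.96 ± 0.04 buccal, log2 fold change ± SE), Fosb (1.00 ± 0.04 and 0.97 ± 0.03), Ier3 (0.92 ± 0.06 and 1.13 ± 0.06), Junb (0.92 ± 0.06 and 0.87 ± 0.04) and Fos (0.86 ± 0.04 and 0.73 ± 0.03) rose on both sides. Atf3 rose in the lingual part (log2 fold change 1.12, SE 0.05, adjusted p = 7.69e-15) and stayed under the fold limit in the buccal part (log2 fold change 0.44, SE 0.05, adjusted p = 2.29e-08). Fosb had 631, 619 and 616 CPM in Bell-L and 745, 749 and 757 in Bell-B, all above the cap stage libraries of the same side. Egr1, at 1667, 1626 and 1615 CPM in Bell-L and 1736, 1785 and 1757 in Bell-B, changed by 0.04 ± 0.04 and -0.04 ± 0.03 and did not pass. Jun (0.13 ± 0.04 and 0.46 ± 0.03), Egr2 (0.39 ± 0.04 and -0.01 ± 0.04) and Ier2 (0.06 ± 0.06 and 0.20 ± 0.04) were not called on either side. Markers moved in the same comparisons, with 8 of 8 macrophage markers (median log2 fold change 1.99 lingual and 1.13 buccal) and 8 of 8 skeletal muscle markers (2.97 and 1.52) called higher at the bell stage, and their part was not tested.

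The interaction of side with stage was negative for Atf3 (difference of log2 fold changes -0.69, SE 0.08, adjusted p = 3.11e-08), Egr2 (difference of log2 fold changes -0.41, SE 0.06, adjusted p = 7.78e-07), Dusp1 (difference of log2 fold changes -0.41, SE 0.06, adjusted p = 1.01e-06) and Fos (difference of log2 fold changes -0.14, SE 0.05, adjusted p = 0.0439), which is 4 of the 10 members against 18% of genes tested. It was positive for Jun (difference of log2 fold changes 0.32, SE 0.06, adjusted p = 7.44e-05), against 14.5% of genes tested. With all 24 libraries in 1 edgeR fit, none of the 10 passed, and 1 had an unadjusted p under 0.05. Over all genes that fit gave 1397 negative and 1184 positive of 23402, against 3957 and 3180 of 21931 in the fit of 12 libraries. DESeq2 on the 12 libraries called 5. The Fos call was lost when any of 9 of the 12 libraries was left out. Ier3 (0.20 ± 0.09, difference of log2 fold changes ± SE), Ier2 (0.13 ± 0.08), Egr1 (-0.10 ± 0.05), Junb (-0.06 ± 0.08) and Fosb (-0.04 ± 0.05) did not pass. Macrophage markers (8 of 8) and skeletal muscle markers (7 of 8) also had a negative interaction, and their part was not tested.

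In the undivided mesenchyme 9 members were higher in Bell-W than in Cap-W, against 10.3% of 20940 genes tested, and none was lower (4.21%). Atf3 had 4.73, 3.55 and 3.80 CPM in Cap-W and 28.9, 29 and 62.0 in Bell-W (log2 fold change 3.31, SE 0.34, adjusted p = 0.0011). Ier3 had 9.06, 6.91 and 5.95 and 23.3, 42.1 and 59.3 (log2 fold change 2.50, SE 0.34, adjusted p = 0.00286), and Egr2 9.23, 13.3 and 9.17 and 41.7, 53.3 and 75.1 (log2 fold change 2.40, SE 0.26, adjusted p = 0.00121). The groups did not overlap for these 3 genes, nor for 9 of the 10 members (35.3% of all genes). Fosb, at 132, 378 and 214 CPM and 332, 539 and 709, overlapped and did not pass (log2 fold change 1.10, SE 0.41, adjusted p = 0.118). Jun (log2 fold change 1.18, SE 0.26, adjusted p = 0.0205) was not called when Cap-W replicate 2, Cap-W replicate 3 or Bell-W replicate 2 was left out. Junb (2.27 ± 0.35, log2 fold change ± SE), Fos (1.90 ± 0.23), Dusp1 (1.84 ± 0.24), Ier2 (1.53 ± 0.28) and Egr1 (1.35 ± 0.20) completed the 9. In the same comparison 8 of 8 endothelial markers (median 1.07) and 8 of 8 macrophage markers (2.47) were called higher in Bell-W, and Cap-W replicate 1 held the high mitochondrial and Rn18s-rs5 shares given above. Their part was not tested.

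The undivided samples were then set against the mean of the parts of the same stage, which differ from them by the needle separation and by anything else that differed between these sets of libraries. At the cap stage 9 of the 10 members were higher in the parts, against 12.6% of 21215 genes tested, and none was lower (9.7%). The groups did not overlap for 9 (27.9% of all genes). Egr2 showed the largest difference (log2 fold change 2.97, SE 0.12, adjusted p = 2.53e-07), followed by Atf3 (log2 fold change 2.48, SE 0.11, adjusted p = 2.93e-07) and Egr1 (log2 fold change 1.89, SE 0.07, adjusted p = 2.11e-07). Egr1 had 468, 462 and 423 CPM in Cap-W, all below the Cap-L libraries, which lay between 1569 and 1645 CPM. Junb (1.72 ± 0.19, log2 fold change ± SE), Fos (1.53 ± 0.08), Ier2 (1.34 ± 0.15), Ier3 (1.25 ± 0.13), Dusp1 (1.05 ± 0.10) and Jun (0.87 ± 0.14) were also higher. Fosb was not called (log2 fold change 0.49, SE 0.25, adjusted p = 0.147), and Cap-W replicate 2 at 378 CPM lay within the range of the parts, 308 to 384 CPM. Without that library Fosb was called, at a log2 fold change of 0.97 and an adjusted p of 0.00118.

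At the bell stage 2 members were higher in the parts than in Bell-W, against 5.35% of 21887 genes tested, and none was lower (4.2%). They were Egr2, with 41.7, 53.3 and 75.1 CPM in Bell-W and 104, 103 and 102 in Bell-L (log2 fold change 0.78, SE 0.15, adjusted p = 0.00525), and Egr1, with 892, 1073 and 1515 in Bell-W (log2 fold change 0.55, SE 0.14, adjusted p = 0.0188). The other 8, none of them called, were Fos (0.44 ± 0.15, log2 fold change ± SE), Fosb (0.38 ± 0.18), Dusp1 (0.38 ± 0.15), Junb (0.37 ± 0.20), Jun (0.01 ± 0.15), Ier2 (-0.04 ± 0.17), Atf3 (-0.04 ± 0.22) and Ier3 (-0.22 ± 0.22). For these Bell-W overlapped the parts, while 18.8% of all genes did not overlap. Within Bell-W, replicate 3 was the highest and replicate 1 the lowest library for all 10 members. Fos, for example, had 723, 857 and 1294 CPM, and Dusp1 101, 125 and 186. The median member CV in Bell-W was 33.9%, and the median over all genes of at least 10 CPM was 10.7%. In Cap-W these medians were 24.9%, over the 8 members of at least 10 CPM there, and 10.6%. In each group of parts the median CV of the members was below that of all genes of at least 10 CPM. Those genes were not matched to the members for level, on which the CV depends. Bell-W replicate 3 also stood apart by its epithelial markers, which summed to 1993 CPM against 537 and 460.0 in replicates 1 and 2. Its Rn18s-rs5 share was 0.223% against 1.30% and 1.43%. Without Bell-W replicate 3, 6 members were called higher in the bell stage parts, Fos, Fosb, Junb and Dusp1 in addition, and without Bell-W replicate 2 only Egr2 was. Over all genes, 1919 of 22313 were called higher without replicate 3 and 1154 of 22384 without replicate 2. With all libraries it was 1172 of 21887. Without Bell-W replicate 1, Egr1 was not called (0.39 on the log2 scale) and Ier3 was called lower in the parts (-0.51). In that fit 1498 of 22282 genes were called higher and 1035 lower. Whether the epithelial or ribosomal share bears on the members in that library was not tested. In the parts 8 of 8 skeletal muscle markers (median 4.30) and 5 of 6 Schwann and glial markers were called higher than in Bell-W. Muscle markers summed to 7.03 to 15.3 CPM in Bell-W, 115 to 124 in Bell-L and 917 to 945 in Bell-B, and their part was not tested.

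Marker levels also differed between the undivided and divided samples at the cap stage. The 8 endothelial markers summed to 216 to 226 CPM in Cap-W and 467 to 538 in the 2 groups of parts, and the 8 macrophage markers to 34.7 to 38.9 and 69.2 to 76.7. Muscle markers summed to 11.9 to 17.9 CPM in Cap-W, 20.8 to 21.5 in Cap-L and 225 to 246 in Cap-B. Of 10 epithelial markers, 8 were called lower in the parts and 2 higher (9.7% and 12.6% of genes tested), with a median log2 fold change of -0.71. Their sums were 286 to 428 CPM in Cap-W, 419 to 463 in Cap-L and 329 to 344 in Cap-B. The part of these differences in the higher level of the members was not tested, and handling, dissection time and any library batch cannot be told apart from the division by the labels.

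Other genes of the same response were read from lists of known membership, whose counts stand against 19.6% of genes tested that rose and 15.9% that fell in the lingual culture, and 17.9% and 16.6% in the buccal culture. Of 42 other immediate early genes, 40 rose in the lingual culture and none fell, with a median of 1.66 on the log2 scale. In the buccal culture 35 rose and none fell, with a median of 1.26. The largest rises in the lingual part were Ptgs2 (4.87 ± 0.08, log2 fold change ± SE), which encodes the inducible cyclooxygenase, Fosl1 (3.36 ± 0.32), a further AP-1 partner, and the nuclear receptor gene Nr4a3 (3.30 ± 0.05). In the buccal part they were Fosl1 (3.31 ± 0.40), Ccn2 (3.24 ± 0.05), a matricellular growth factor, and Klf10 (3.01 ± 0.05), a TGF-beta early response gene. Between undivided and divided cap samples, 30 of 41 tested genes of this list were higher in the parts (12.6% of genes tested) and 1 was lower (9.7%). At the bell stage 12 of 41 were higher (5.35%) and none was lower (4.2%).

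Most feedback genes that limit MAP kinase signalling, the role of Dusp1, rose in the lingual culture. Of 15 such genes 11 rose and 1 fell there, against 19.6% and 15.9% of all genes, with a median of 0.95 and with Dusp14 (1.81 ± 0.08), Dusp10 (1.48 ± 0.06) and Dusp2 (1.47 ± 0.08) leading and Dusp7 (-0.52 ± 0.05) lower. In the buccal culture 9 rose and none fell (17.9% and 16.6% of all genes), led by Spry2 (1.79 ± 0.05), Dusp14 (1.46 ± 0.10) and Spry1 (1.43 ± 0.03). Of 22 upstream regulators, which include the serum response factor, CREB and ternary complex genes, 6 rose and 1 fell in the lingual culture and 5 rose and 2 fell in the buccal culture, shares of rises near those of all genes, 19.6% and 17.9%. Jdp2, an inhibitor of AP-1, rose in both (1.33 ± 0.06 and 1.32 ± 0.06), and Creb1 fell in both (-0.61 ± 0.05 and -0.69 ± 0.04). Myocd, which encodes the serum response factor partner myocardin, also rose in both (1.21 ± 0.40 and 1.49 ± 0.35). Nab1, a corepressor of EGR proteins, likewise rose in both (0.96 ± 0.05 and 0.87 ± 0.05), and Batf3 rose in the lingual part (1.04 ± 0.13). Elk3 fell in the buccal part (-0.70 ± 0.04).

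The targets of serum response factor and actin signalling rose in part, 12 of 18 in each culture (19.6% and 17.9% of all genes), with medians of 1.03 in the lingual and 1.07 in the buccal part. The smooth muscle contractile genes Acta2 (5.24 ± 0.06 lingual, 3.69 ± 0.04 buccal), Actg2 (5.14 ± 0.13 and 4.63 ± 0.11) and Cnn1 (4.16 ± 0.13 and 3.27 ± 0.15) rose most. Of 17 integrated stress response genes, the pathway that includes Atf3 among its targets, 11 rose in the lingual and 12 in the buccal culture, with medians of 0.79 and 1.92, and none fell. The shares of all genes that rose were again 19.6% and 17.9%. Gdf15 (5.93 ± 0.45 and 4.28 ± 0.41) and Chac1 (4.63 ± 0.15 and 5.23 ± 0.13) were among the largest rises on both sides, with Fgf21 in the lingual (4.74 ± 0.53) and Trib3 in the buccal part (4.49 ± 0.13). Of 18 heat shock and chaperone genes, 6 rose and none fell in the lingual culture, while 4 rose and 2 fell in the buccal culture. In the buccal culture these shares were near those of all genes, 17.9% and 16.6%, and the lingual median of this list was -0.16. Cryab, a small heat shock protein gene, rose in both (2.31 ± 0.11 and 3.14 ± 0.07), as did Hspb1 (1.46 ± 0.14 and 2.22 ± 0.09) and Hspa4l (1.25 ± 0.10 and 1.97 ± 0.08). Hspa1a (-2.23 ± 0.07) and Hspa1b (-2.23 ± 0.05), inducible Hsp70 genes, fell in the buccal culture, and their near-identical copies make the split of reads between them uncertain.

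The members varied together across libraries. Pearson's r of each member with the mean of the other 9, over 24 libraries, ran from 0.846 for Dusp1 to 0.988 for Junb. Of 14036 genes compared, those most like the mean of the 10 members were Zfp36 (r = 0.987), Lmna (0.982), Crtap (0.982), Crip2 (0.977), Myo1f (0.977), Cercam (0.976), Myd88 (0.974) and Plcg2 (0.973). After each group was centred on its own mean, so that only differences between replicates remained, the most alike were Hspa1a (0.970), Nr4a3 (0.961), Fzd2 (0.958), Efnb1 (0.954), Penk (0.948), Zfp36 (0.948), Hspa1b (0.947) and Dynlt1-ps1 (0.947). Zfp36, which encodes a protein that destabilizes AU-rich transcripts, was the gene present in both sets. The libraries fall into 8 groups and share depth and normalization, and the centred values rest mainly on the undivided libraries, whose spread was widest, so these coefficients are descriptions.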

How the data were processed

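Gene expression was measured by bulk RNA-seq in 24 libraries. The authors deposited raw counts of read pairs per gene in 1 table, made per the file headers with featureCounts 2.0.0 (2.0.3 in the submitters' processing notes) over exons of an Ensembl 107 annotation of GRCm39, ignoring strand. The sources used here differ on the steps before: the processing notes name Trimmomatic 0.39 and Bowtie 1.2.3, the methods of the study Cutadapt and STAR. Symbols and start sites came from GENCODE vM39, which named 56017 of the 56748 genes.

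Libraries were grouped from their titles. Each comparison was fitted on the libraries of its groups with edgeR 4.0.16 in R 4.3.3, with TMM normalization, filterByExpr and the quasi-likelihood test, and p-values were adjusted by Benjamini-Hochberg over all genes tested. Calls needed an adjusted p under 0.05 together with a log2 fold change beyond 0.5 in size, and for interactions the adjusted p alone. All 10 members passed the filter in every comparison. The SE given with an edgeR log2 fold change is the size of that change divided by the square root of its F statistic. The fits were tested on simulated data. Alternatives were RLE normalization, DESeq2 1.42.0, no filter, a minimum of 10 counts in each library, 1 fit of all 24 libraries, a replicate block, other thresholds, and leaving out each library.

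Counts summed to between 20581720 and 39266497 per library, which put 3 counts, the floor, at 0.0764 to 0.146 CPM. This covers counting error only. The members, the related lists (1 integrated stress response gene with 2 identifiers was left out of 18) and the markers were chosen with earlier results of these data known. All 10 members were reported in each comparison, and from the related lists up to 3 called genes of largest change in each direction in the culture comparisons.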

Additional observations from a re-analysis of the deposited data

Results flagged for a closer look

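The response of 8 members to culture differed between the sides by an interaction test over 12 libraries (edgeR quasi-likelihood test, adjusted p under 0.05), the buccal change minus the lingual change on the log2 scale. Of 22098 genes tested, 19.5% had a negative and 16% a positive difference by it. The difference was -1.52 for Fosb, -1.14 for Dusp1, -1.05 for Atf3, -0.92 for Fos, -0.77 for Junb, -0.39 for Jun, -0.38 for Ier3 and -0.20 for Egr1. In every case the lingual part changed more upward. With all 24 libraries in 1 fit, Junb, Jun, Ier3 and Egr1 lost their call. Calls over all genes also fell in that fit, to 2075 negative and 1973 positive of 23402. Skeletal muscle, epithelial, endothelial and macrophage markers also changed by different amounts on the sides, and their part was not tested.

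The change from the cap to the bell stage differed between the sides for 5 members by the same test. Of all genes tested, 18% had a negative and 14.5% a positive difference by it. The difference was -0.69 for Atf3, -0.41 for Egr2, -0.41 for Dusp1 and -0.14 for Fos, with the lingual part changing more upward, and 0.32 for Jun, with the buccal part changing more upward. The Fos value lost its call when any of 9 of the 12 libraries was left out. It also did so with RLE normalization, with no filter on low counts and with the replicate block. With all 24 libraries in 1 fit, none of the 5 members kept its call. Calls over all genes also fell in that fit, to 1397 negative and 1184 positive of 23402. Macrophage markers (8 of 8) and skeletal muscle markers (7 of 8) also had a negative difference, and their part was not tested.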

How the results depend on the processing

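Over 140 values of a gene in a comparison and their alternatives, 2040 in all, 1973 kept their direction and their side of the threshold, 28 lost and 22 gained a call, and 17 changed sign. The values that changed sign were not called in the reported fit. Without a limit on the fold, the number of members called was 10 for cultured against bell buccal samples (5 with the limit), 8 for the stage in the buccal part (5), 7 for the side at the cap stage (2) and 8 for the side at the bell stage (3). Over all genes only the count at an unadjusted p under 0.05 was taken, a looser threshold than the adjusted p used for the members. By it 15018 of 21992 genes passed in the first of these comparisons and 11746 of 21992 in the second. For the side it was 10173 of 20653 at the cap stage and 9330 of 21181 at the bell stage. With all 24 libraries in 1 fit, 4 members passed for side by culture and 0 for side by stage, and the cause was not tested. Fewer of all genes passed in that fit too, by the counts given above. Leaving out 1 library moved the count for the bell stage parts against Bell-W between 1 and 6. Over all genes it moved those called higher between 1024 and 1919, and those called lower between 770 and 1443. Of 9 values that changed sign on leaving out 1 library, 4 lay in the bell stage comparison with Bell-W. They were Jun (-0.20 to 0.24), Ier2 (-0.22 to 0.30), Ier3 (-0.51 to 0.14) and Atf3 (-0.23 to 0.44). The others were Ier2 for the stage in the lingual part (-0.014 to 0.16), Egr2 for the stage in the buccal part (-0.025 to 0.012), Junb for the side at the cap stage (-0.078 to 0.064), Egr1 for the side after culture (-0.020 to 0.028) and Junb for side by stage (-0.14 to 0.013). Egr2 for the stage in the buccal part was 0.0051 without a filter, 0.0034 with at least 10 counts in every library and 0.0018 with all 24 libraries. Fosb for the undivided stage comparison was called by DESeq2 (adjusted p = 0.0197), without a filter (0.0288), with the replicate number as a block (0.0204) and with all 24 libraries in 1 fit (5.93e-04).

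Same-numbered libraries did not deviate together, with correlations of their deviations from the group means between -0.141 and 0.0862 over 23402 genes, so the replicate numbers were not taken to pair the samples. With the number as a replicate block, the count of members called was 10 and 6 for culture in the lingual and buccal parts, 8 and 5 against the bell stage, 6 and 5 for the stage in the parts, 10 for the undivided stage comparison (9 without the block), 2, 3 and 7 for the sides at the cap stage, at the bell stage and after culture, 9 and 2 for parts against undivided samples, 8 for side by culture and 4 for side by stage (5 without). Over all genes, the block called 4181 higher and 3368 lower of 21425 for the lingual culture. For the buccal culture it called 3943 and 3665 of 21992. For the undivided stage comparison it called 1949 higher and 842 lower of 20940 genes (2155 and 882 without). For side by stage it called 3058 positive and 3821 negative of 21931 genes (3180 and 3957 without). With the block, Ier2 (0.0016) and Atf3 (0.028) for the bell stage parts against Bell-W changed sign, both uncalled.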
